A study of Mus musculus with 2 samples.

Results

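In the left cerebral cortex of the mouse, 585 sites of open chromatin lay in exons of protein-coding genes away from transcript starts and ends. DNase-seq reads open chromatin from the positions at which DNase I, a nuclease, reaches the DNA of isolated nuclei. The tissue came from 2 B6CASTF1/J males, 36 days old, each with a library of its own, called replicate 1 and replicate 2. B6CASTF1/J is the first-generation cross of the inbred strains C57BL/6J and CAST/EiJ. Both mice form 1 group without treatment, and they carry the same donor label although they are numbered as separate males. A site was kept where the shorter peak lists of both mice overlapped or touched, which gave 43755 sites on chromosomes 1 to 19 and X. The 585 sites have their midpoint in an exon of a protein-coding gene and lie over 1 kb from every annotated transcript start and over 1 kb from every transcript end. Of these, 345 lie in coding sequence. The other 240 are untranslated, 148 of them in a 3' UTR, 26 in a 5' UTR and 66 in an exon of a non-coding transcript of a coding gene.

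With 1 group of 2 mice there is no test between groups and no p. Values are given for each mouse, and errors are the SD over the mice. Peak heights were read as depth-scaled cuts, and on that reading replicate 1 holds 160.1 M cuts and replicate 2 holds 145.4 M. The median coding-exon height then stands for 246 and 133 cuts, with counting errors of 6.38% and 8.67%. In the tissue check, 10 of 10 promoters of cortical excitatory neuron genes had a peak in each mouse. The same held for 4 and 2 of 6 astrocyte promoters, 3 and 4 of 6 oligodendrocyte promoters, 1 and 1 of 6 microglial promoters and 0 of 6 liver promoters in both. Bulk tissue does not show which cells carry a site, and a low site in all cells and a high one in few cannot be told apart.

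Most open chromatin lies at promoters and at distal enhancers, and enhancers are usually sought in introns and between genes. Some enhancers and insulators overlap exons, so that the same bases both encode protein and bind transcription factors. A footprint is a short stretch inside an open site that DNase I cuts less than its surroundings, as under a bound protein. CTCF, a zinc finger protein that anchors chromatin loops, binds a long and well-defined sequence and leaves a clear footprint. Exons carry more GC than introns, are often covered by a well-placed nucleosome, and are spliced at an acceptor end upstream and a donor end downstream.

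The sequences shown first come from exon sites in which a CTCF match lies inside a footprint in both mice, and from the higher sites of each class, although Epg5 and Ctif, which rank among the coding ones, are not shown. Each line runs 5' to 3' on the strand of the match in GRCm38, and the capitals mark the match. Synpo2l, Gpr153, Dgki, Soga1, Tecpr2 and Dnah1 are coding, and the remaining ones are untranslated.
Synpo2l (chr14:20661153-20661182, minus strand): ttcatgcagCCACTAGGGGGCaggagttac
Gpr153 (chr4:152283370-152283399, minus strand): tgcgtacggCCACCAGGGGGCgttgggacc
Dgki (chr6:37097521-37097550, plus strand): acacactcgCCAGCAGGTGGCgctcgctta
Soga1 (chr2:157030987-157031016, minus strand): gaaggaagaCCAGCAGAGGGCgctgctgag
Tecpr2 (chr12:110936425-110936454, plus strand): agatgctgtCCAGCAGATGGCagtctctcc
Dnah1 (chr14:31272359-31272388, plus strand): cagcttcttCCAGCAGGGGGCgcataatct
Tnfrsf1b (chr4:145214570-145214599, plus strand): caggacgggCCACCAGGGGGCagacgtgtt
Gpr162 (chr6:124859903-124859932, plus strand): cagcttagtCCAGCAGGGGGCaccccaggg
Ky (chr9:102545186-102545215, minus strand): gcacgtgatCCACCAGGGGGCgctcgtgcc
Rnf150 (chr8:83089565-83089594, minus strand): agtatcagaCCAGCAGAGGGCgctctgacc
Rgs7bp (chr13:104948115-104948144, plus strand): gctcagtttCCACTAGGTGGCagcattgcc

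The next lines show footprints of the highest coding site, in Angptl6, and of the highest site in a solute carrier gene, in Slc1a6, on the strand of each gene. Capitals mark bases that lie in a footprint of both mice.
Angptl6 (chr9:20878273-20878302, minus strand): gccTGGGCCAGCTGCGCGCGCAATTGCagc
Angptl6 (chr9:20878405-20878434, minus strand): tggcCACGCTGCGCATGCGCCTGGGTCgcc
Slc1a6 (chr10:78787854-78787883, plus strand): agagagCACTGCGCACGCGCTTGCgcctgc
In the 380 bp of the Angptl6 site, footprints covered 137 bases in replicate 1 and 175 in replicate 2, and 113 in both. In the 280 bp of the Slc1a6 site they covered 59 and 89, with 45 in both. The second run of Angptl6 holds the palindrome bound by NRF1, a transcription factor of mitochondrial and housekeeping genes. That palindrome was found in 1 of 345 coding sites, 2 of 240 untranslated sites and 0.715% of all shared sites, with 1.56% at promoters. The untranslated ones lie in the 3' UTRs of Mturn (3.39 and 1.32 in height) and of Nfatc2, a calcium-regulated transcription factor (2.77 and 1.25).

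The highest coding-exon site lay in exon 2 of 6 of Angptl6, which encodes a secreted angiopoietin-like protein. On chromosome 9 at 20878141 to 20878520, its height was 14.3 in replicate 1 and 7.66 in replicate 2. It held 9 and 10 footprints, and it had a GC content of 73.5% over the central 200 bp. Fbxl22, an F-box gene of heart and muscle, followed with 9.24 and 4.60 in its last exon, at a GC content of 75.5%. The predicted coding gene B430305J03Rik had 6.69 and 6.58, nearly the same height in both mice. Slc1a6, the glutamate transporter EAAT4 known from Purkinje cells, had 5.20 and 3.61 in exon 2 of 10 and a lower site in exon 9 with 2.16 and 1.499. Synpo2l, an actin-binding protein of muscle, had 4.75 and 4.02, and Psmc2, an ATPase of the proteasome, 6.09 and 2.21. Sft2d3 (7.80 and 2.79) and Ino80c (3.76 and 4.26), a subunit of a chromatin remodeller, complete the highest 8. All but Ino80c were higher in replicate 1.

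Some of the highest sites lie within 1 kb of a transcript start that the gene annotation used for the rule does not hold. RefSeq places a transcript start 269 bp from the Angptl6 site, 99 bp from Slc1a6, 16 bp from Psmc2 and 686 bp from B430305J03Rik. In all, 28 of 345 coding and 19 of 240 untranslated sites lay within 1 kb of a RefSeq transcript start, and 7 and 5 of the highest 20 of each class. For 9 and 7 of them the start belongs to a curated RefSeq transcript. The coding sites near such a start had a median height of 1.98 in replicate 1 and 0.918 in replicate 2, against 1.51 and 0.915 for the other 317. For untranslated sites the medians near a start were 1.84 and 1.29, and those of the other 221 were 1.42 and 1.10. In the 5' UTR 13 of 26 sites had a RefSeq start within 1 kb. An alternative left out these 47 sites and also the 407 intron sites within 1 kb of a RefSeq start. The results with 1 direction in both mice kept it, and only the differences in GC content moved by more than the SD over the mice.

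Among untranslated exons, Gas2l1, which links actin to microtubules, had the highest site (6.99 and 3.91), in an exon of a non-coding transcript. Rap2b, a small GTPase, had 6.43 and 3.58 in its 5' UTR, 34 bp from a RefSeq start. That site lies beside the one assigned to B430305J03Rik, and both fall in the exon of Rap2b. Pura, a nucleic-acid-binding protein needed for brain development, had 5.95 and 3.83, and Nup160 of the nuclear pore had 4.84 and 2.35. Cdc14a, a phosphatase, had 4.74 and 2.93 in an exon of a non-coding transcript, 22692 bp from the nearest annotated start. Rdh13, a retinol dehydrogenase, had 2.45 and 4.51 in its 3' UTR. Sox12, a SoxC transcription factor, had 3.46 in both mice, and Zfp503, a zinc finger repressor of striatal development, had 3.04 and 3.56. Of the 8 highest untranslated sites Rdh13 and Zfp503 were clearly higher in replicate 2, and Sox12 was level. The lowest sites were Nfic (0.312 and 0.371) and Atxn7l2 (0.493 and 0.282) in coding exons and Mecom (0.418 and 0.420) in untranslated ones.

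**Figure D1:**
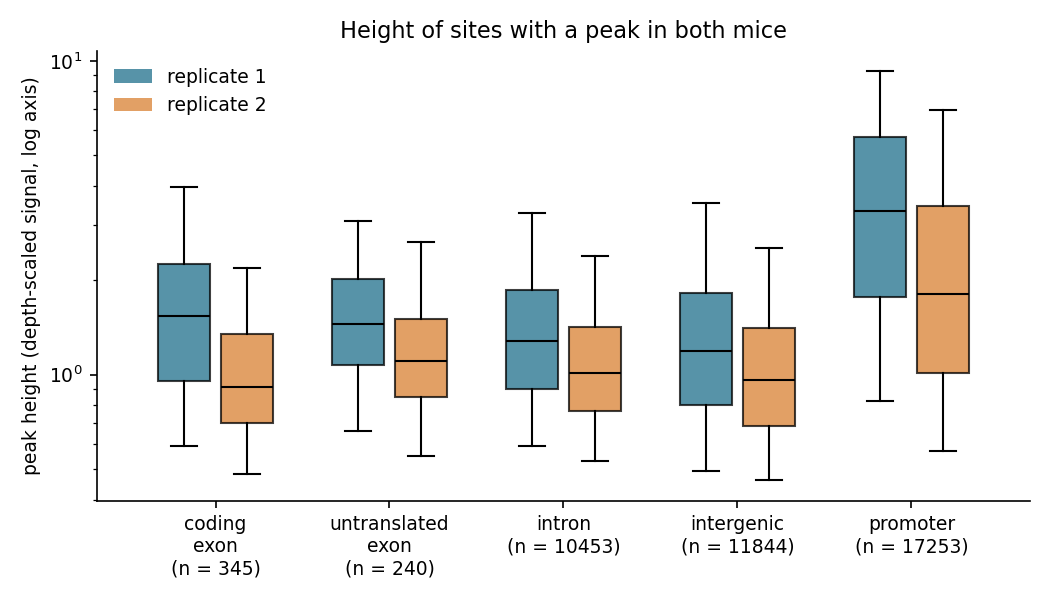
Peak height (log axis) in replicate 1 and replicate 2 for sites with a peak in both mice. Boxes span the quartiles with the median as a line, and whiskers the 5th to 95th percentile. Coding-exon sites have a median of 1.54 in replicate 1 and 0.915 in replicate 2, untranslated ones 1.46 and 1.11, introns 1.28 and 1.01, and promoters stand above them all at 3.32 and 1.81.

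Most accessible exons lay near a start. Of 1568 shared sites with their midpoint in coding sequence, 991 lay within 1 kb of a start, 232 more within 1 kb of an end, and 345 were left (22.0%). Of 5731 in untranslated exons, 5028 lay near a start, 463 near an end alone, and 240 were left (4.19%). Sites just inside the limit, 1000 to 1200 bp from the nearer start or end, had median heights of 1.30 in replicate 1 and 0.846 in replicate 2 in coding exons (43 sites). Those just outside it, at 800 to 1000 bp, had 1.71 and 0.908 (56 sites). In untranslated exons the medians were 1.44 and 1.09 inside (53 sites) and 1.40 and 1.10 outside (76 sites).

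Coding exons held more sites for their length than introns. The coding sequence that the rule admits amounts to 16.95 Mb and holds 20.4 shared sites per Mb. Untranslated exons amount to 14.7 Mb with 16.3 per Mb, against 12.7 per Mb in 821.0 Mb of introns and 9.24 per Mb between genes. That is 1.60 times the density of introns for coding exons and 1.28 times for untranslated exons. With starts and ends kept 500 bp away these ratios were 1.85 and 1.43, and at 2 kb they were 1.33 and 1.06. Within 2 kb of a start lay 85 of 345 coding sites and 1009 of 10453 intron sites. The part of nearness to starts and ends in the density was not tested. Counting the peaks of each mouse alone, coding exons had 54.0 (replicate 1) and 25.3 (replicate 2) per Mb (mean 39.6 ± 20.3 SD over both mice). Untranslated exons had 33.4 and 22.0 (27.7 ± 8.05), and introns 22.2 and 18.4 (20.3 ± 2.69). The order of the classes was the same in both mice, but coding exons differed more between the mice than they differed from introns in replicate 2. Eligible coding sequence also has more GC, 50.4% against 42.1% in introns, and the part of this in the density was not tested. Only unknown bases were left out of the eligible sequence, so repeated sequence to which reads map poorly counts towards its length. The part of that in the densities was not tested either.

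A second readout, which does not use the peak lists, gave the same order. Of eligible coding bases, 1.69% in replicate 1 and 0.582% in replicate 2 were listed at a false discovery rate of 0.001 or less. For untranslated exons the shares were 0.967% and 0.502%, against 0.592% and 0.393% in introns and 0.392% and 0.296% between genes. Coding exons thus stood at 2.85 and 1.48 times introns, and untranslated exons at 1.63 and 1.28 times. The same eligible sequence served here, repeated sequence included. With starts and ends kept 2 kb away, coding exons stood at 2.05 times introns in replicate 1 and 1.20 times in replicate 2. The ratio of untranslated exons then averaged 1.05 over the mice and that in replicate 2 was 1.00.

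**Figure D2:**
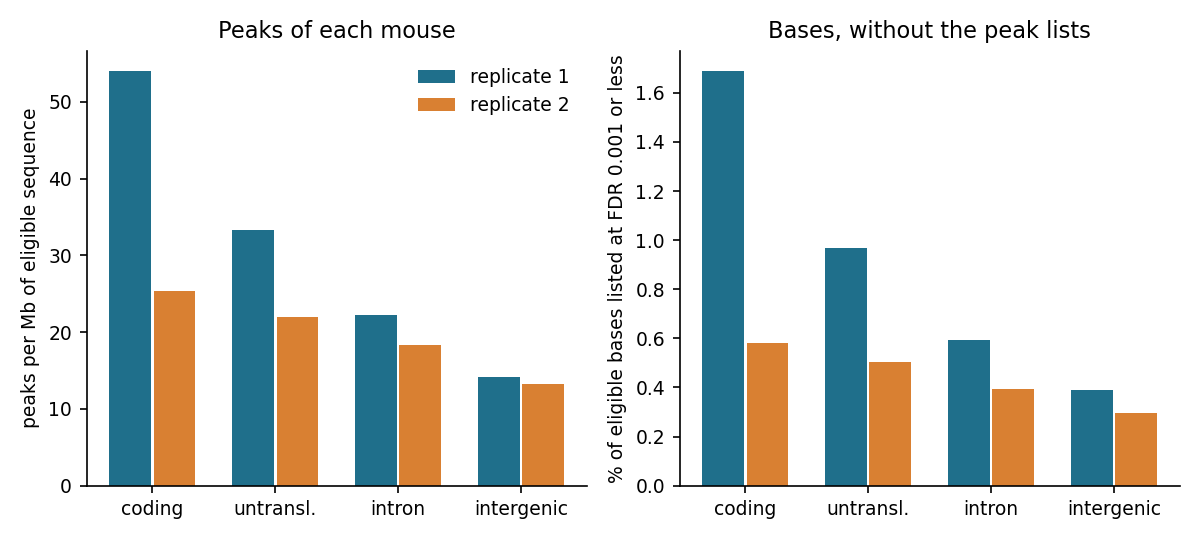
Peaks of each mouse per Mb (left) and percent of bases listed at a false discovery rate (FDR) of 0.001 or less (right) in eligible coding exons, untranslated exons, introns and intergenic sequence. Bars are 1 value per mouse. In both panels the coding bars are the highest, at 54.0 and 25.3 per Mb on the left, and the gap between the mice is widest there.

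Listed bases became fewer step by step from the exon into the intron. The 43186 internal exons used were wholly coding, had a minimum length and lay away from transcript starts and ends. Of them, 0.885% in replicate 1 and 0.429% in replicate 2 were listed at that rate 10 to 59 bp inside the acceptor end. Bases outside were taken by distance alone, so a neighbouring exon within that distance counts as intron here. In the intron 300 to 400 bp upstream the shares were 0.509% and 0.319%. Inside the donor end they were 0.8595% and 0.429%, and 300 to 400 bp downstream 0.554% and 0.343%. The exon side was the higher one at both ends in both mice, and more than 50% of its level remained in the far intron. Between exon and far intron lay the first bases of the flanking intron, 10 to 59 bp outside, at 0.716% and 0.402% upstream and 0.716% and 0.379% downstream.

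**Figure D3:**
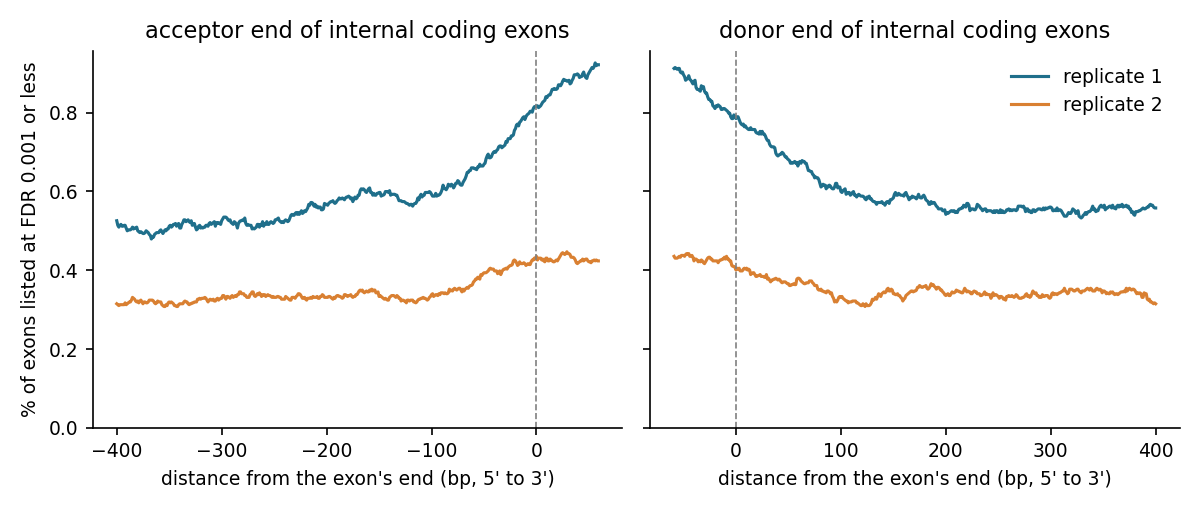
Percent of 43186 internal coding exons listed at an FDR of 0.001 or less, by distance in bp from the acceptor end (left) and the donor end (right), read 5' to 3'. In replicate 1 the curve is at 0.885% just inside the acceptor end and at 0.509% far upstream, and in replicate 2 at 0.429% and 0.319%.

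Long coding exons were more often open than short ones. Exons up to 150 bp held 13.5 coding sites per Mb, those above that and up to 300 bp 19.9, and those up to 1000 bp 21.3. The density was 31.8 per Mb up to 3000 bp and 32.03 above 3000 bp. Listed bases followed the same order, with 0.751% in replicate 1 and 0.372% in replicate 2 in the shortest exons and 4.04% and 1.16% in the longest. The eligible sequence of these classes had a GC content between 48.9% and 52.3%. The sites themselves had 52.6% in the shortest exons, 55.8% up to 300 bp, 62.6% up to 1000 bp, 63.1% up to 3000 bp and 60.4% above that, and the part of GC content in the trend was not tested. Many sites were wider than the exon they lay in, and 221 of 345 coding sites crossed a splice site, against 20 of 240 untranslated ones, whose exons had a median length of 3724.5 bp beside 237 bp for coding exons. Of the coding sites 246 lay in internal, 62 in last, 17 in first and 20 in single exons. For 312 of them every coding transcript of the gene that spans the midpoint has it in an exon. Among untranslated sites 236 were spanned by a coding transcript of their gene. The midpoint was exonic in all such transcripts at 154 of these, and in none at 67.

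Several single long exons carried more than 1 site. Tchh, the hair follicle structural protein trichohyalin, had the most, 4 sites in its last exon of 5685 bp. Their heights ran from 0.874 to 2.15 in replicate 1 and from 0.378 to 1.13 in replicate 2. Slitrk1, a synaptic adhesion protein encoded by a single exon, had 3, led by 3.12 and 1.48, with 1.81 and 0.894 and with 1.12 and 0.475 nearer its start. Pcdh17, an adhesion molecule of the protocadherin family, had 3 in its 5' UTR. Those Pcdh17 sites had 1.84 and 0.626, 1.41 and 0.915, and 0.706 and 1.11, the last being higher in replicate 2. Pcdh10, of the same family, had 2 wide coding sites with 1.56 and 0.702 and with 1.42 and 0.647. Syne1, the giant nuclear envelope protein nesprin-1, and Utrn, which encodes utrophin, each had 3 in short internal exons. Syne1 reached 1.41 and 1.31 in exon 55 of 146, and Utrn reached 0.981 and 0.709 in exon 26 of 74. In all 542 genes held a site, 2.49% of 21755 protein-coding genes. Of these, 505 held 1, 32 held 2 and 5 held 3 or more.

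In height, exon sites were below promoters and close to introns. The median of coding sites was 1.54 in replicate 1 and 0.915 in replicate 2 (mean 1.23 ± 0.439 SD over both mice). For untranslated sites it was 1.46 and 1.11 (1.28 ± 0.246), and for introns 1.28 and 1.01 (1.15 ± 0.190). Coding sites were thus 1.20 times introns in replicate 1 but 0.905 times in replicate 2, so that over shared sites their order was opposite in the mice. Over all peaks of 1 mouse, shared or not, the ratio was 0.956 in replicate 1 and 0.929 in replicate 2, below 1 in both. Untranslated sites were 1.14 and 1.10 times introns, the same direction in both mice. With the higher 50% of the peaks the untranslated ratio averaged 0.976, below 1.

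In genes that held both, the highest exon site was usually below the highest intron site. Over 258 such genes, the median log2 ratio of the exon site to the intron site was -0.16 in replicate 1 and -0.42 in replicate 2 (mean -0.29 ± 0.18 SD over both mice). The exon site was the higher one in 111 and 89 genes, and in 64 of them in both mice. The intron site was the higher one in 145 and 169 genes, and in 122 in both. A gene with several intron sites has more chances to hold a high one, and the number of sites was not matched.

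Against the promoter of their own gene, coding sites had a median of 36.4% of its height in replicate 1 and 45.4% in replicate 2. Untranslated sites had 33.5% and 43.9%. No shared promoter site was present for 117 of 345 coding and 62 of 240 untranslated sites. Exon sites exceeded the promoter in both mice at 15 coding and 8 untranslated sites. The genes named next were picked from those 23 after their values were seen. Lzts1, a tumour suppressor also found at the postsynaptic density, had 3.10 and 2.66 in its 3' UTR beside 2.77 and 1.36 at the promoter. Grip1, a scaffold of AMPA receptors, had 1.93 and 1.49 in exon 17 of 23, 45315 bp from any annotated start, beside 1.32 and 0.674. Caskin1, a partner of the presynaptic scaffold CASK, had 3.57 and 1.17 beside 1.97 and 1.06. Adgrv1, a very large adhesion receptor, had 2.37 and 1.11 in exon 67 of 90 beside 0.687 and 0.667.

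The mice differed more at coding exons than elsewhere outside promoters. Height was greater in replicate 1 at 298 of 345 coding sites and at 185 of 240 untranslated sites. The median ratio of replicate 1 to replicate 2 was 1.52 for coding sites and 1.23 for untranslated sites, against 1.25 in introns and 1.65 at promoters. Over 2-fold higher in replicate 1 were 93 coding and 22 untranslated sites, where 18.2% of all shared sites were. None of either class was over 2-fold higher in replicate 2, where 0.471% of all shared sites were.

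The ratio moved with GC content. Coding sites of 60% GC or more had a median ratio of 1.96 (128 sites), those of 50 to 60% 1.37 (163 sites), and those under 50% 1.15 (54 sites). Introns showed the same order with 1.56, 1.33 and 1.10. Across the 345 coding sites Spearman's rho between ratio and GC was 0.529, and across the 240 untranslated sites it was 0.389. Each site enters with both its libraries, and heights of replicate 1 themselves had a rho of 0.460 with GC in coding exons, beside 0.132 for replicate 2. The part of GC content or library preparation in the difference between the mice was not tested.

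**Figure D4:**
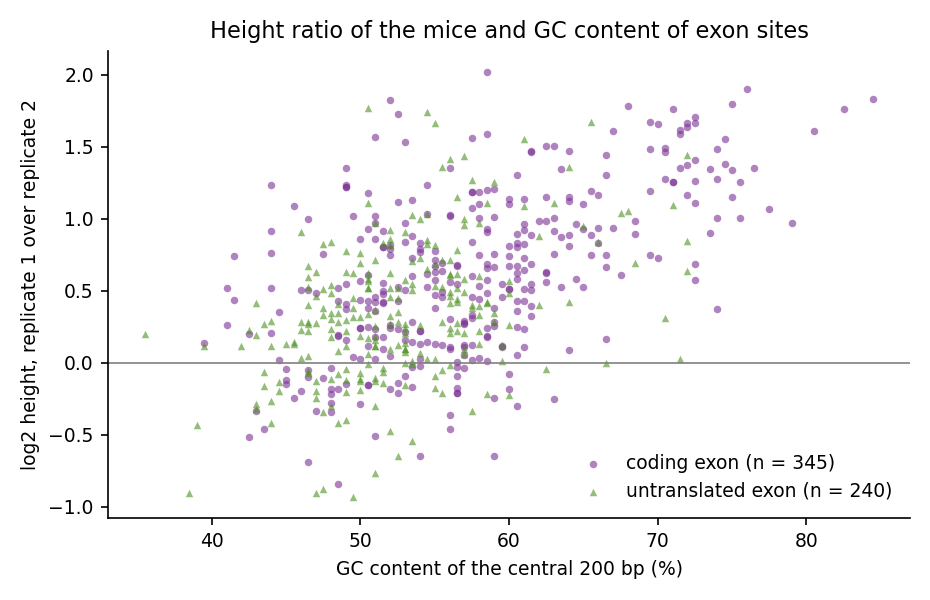
Log2 ratio of peak height, replicate 1 over replicate 2, against the GC content of the central 200 bp (percent), 1 point per exon site. Above 60% GC nearly all points lie over the line at 0, and the median ratio of coding sites there is 1.96, against 1.15 below 50% GC.

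The sites with the largest ratio were all coding. Utp4, a factor of ribosome assembly, had 5.27 in replicate 1 and 1.30 in replicate 2, a ratio of 4.05. Ccdc92b had 2.85 and 0.764, Marcks, an actin-regulating substrate of protein kinase C, 2.08 and 0.585, Polr3b, a subunit of RNA polymerase III, 3.20 and 0.901, and the Wnt receptor Fzd8 2.34 and 0.674. The Marcks site had a GC content of 84.5%, the highest of all exon sites. Ccdc92b had 76%, Fzd8 75%, Utp4 58.5% and Polr3b 52%. In the other direction, Rgs7bp, which anchors a G-protein regulator in neurons, had 1.48 and 2.82 in its 3' UTR, a ratio of 0.525. Nfib, a transcription factor of cortical development, had 0.568 and 1.07, Wdr33, a 3' end processing factor, 0.643 and 1.20, and Cep85l 0.593 and 1.07. Their GC content ran from 38.5% to 49.5%.

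Exon sites called in either mouse were less often shared than others. Of 993 coding sites of either mouse, 345 were shared (34.7%), while 561 were called only in replicate 1 and 87 only in replicate 2. Of 571 untranslated sites, 240 were shared (42.0%), against 46.2% in introns and 51.3% between genes. Over all sites the share was 52.7%. Each share depends on where the peak threshold fell in each library.

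Coding exon sites were rich in GC, and so was coding sequence itself. Their central 200 bp had a mean GC content of 57.8%, untranslated sites had 52.7%, and introns had 51.5%. Eligible sequence as a whole had 50.4% in coding exons, 42.8% in untranslated exons and 42.1% in introns. Sites of each class thus exceeded their own sequence, and the gap between coding and intron sites was no wider than that between their sequences. Promoter sites had 63.4%. The ratio of observed to expected CpG had a median of 0.470 in coding and 0.314 in untranslated sites, against 0.258 in introns and 0.780 at promoters. Windows with at least 50% GC and a CpG ratio of at least 0.6 made up 34.2% of coding sites (118) and 13.8% of untranslated ones (33). The share was 4.10% in introns and 68.9% at promoters. It was not counted over eligible sequence, so the part of coding sequence itself in the difference was not tested. Fbxl22 and Prdm12, a chromatin factor of sensory neurons whose last exon had 4.12 and 1.61, were among the sites of this kind, with CpG ratios of 1.33 and 1.18.

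Nearly every exon site held a footprint, as open sites in general did. At least 1 footprint was present in 93.9% of coding sites in replicate 1 and 96.2% in replicate 2 (95.1% ± 1.64). For untranslated sites it was 93.3% and 96.7%, against 96.5% and 96.9% in introns. Both mice had one in 316 of 345 coding and 218 of 240 untranslated sites, 91.6% and 90.8%, where 92.8% of all shared sites did. Coding sites had 10.6 and 9.42 footprints per kb and untranslated sites 10.7 and 11.6, against 11.3 and 11.0 in introns. The gap between exon and intron shares changed sign under some settings, and those values are given with the other alternatives.

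The most footprints were in wide sites. Pou3f3, a POU transcription factor of upper-layer neurons encoded by a single exon, had 18 in replicate 1 and 4 in replicate 2 over 1240 bp, with heights of 2.22 and 0.736. Pcdh10 had 16 and 6 in its wider site, and Tchh 12 and 9. Among untranslated sites, Meltf, an iron-binding membrane protein, had 11 and 9 in its 3' UTR, Sox11, the neuronal SoxC factor, 11 and 8, and Lzts1 7 and 9. Sox11 was the 1 gene with an exon site on a list of 24 cortical transcription factors (4.17%, 13.4 per Mb of eligible exon, against 2.49% and 18.4 per Mb for all genes), and its height was 2.39 and 0.7498. That list does not hold Pou3f3, Nfib, Pou3f2 (1.48 and 0.729) or Neurog2 (1.91 and 0.599), transcription factor genes that also held one. Replicate 1 gave the larger number at all of these but Lzts1, with the largest gap at Pou3f3.

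CTCF matches were present in both exon classes, at shares whose intervals include that of introns. A match lay in the central 200 bp of 22 of 345 coding sites, 6.38% (95% Wilson interval 4.25 to 9.47%). For untranslated sites it was 28 of 240, 11.7% (8.20 to 16.3%), and for introns 9.12% (8.58 to 9.68%). Over all shared sites the share was 7.15%, and at promoters 2.28%. With a looser pattern both differences changed sign, to 4.88 points for coding and -0.68 points for untranslated sites. The same pattern reversed but not complemented was in none of the exon or intron sites.

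Where a match was present it was nearly always in a footprint. In both mice a footprint covered it at 19 of 22 coding and 27 of 28 untranslated sites, against 874 of 953 in introns (91.7%). Synpo2l had the highest such coding site, with 4.75 and 4.02. Epg5, an autophagy factor, had 3.50 and 2.46, Gpr153, an orphan receptor, 3.93 and 1.64, and Dgki, a diacylglycerol kinase of neurons, 2.47 and 2.83. Dnah1, a dynein of cilia, had 1.81 and 1.55 in exon 54 of 78. In 3' UTRs, Tnfrsf1b, the tumour necrosis factor receptor 2, had 2.84 and 3.21, Ky, a muscle protein, 3.25 and 1.51, and Rnf150, a ubiquitin ligase, 2.15 and 2.26. Gpr162, another orphan receptor, had 3.24 and 1.88 in an exon of a non-coding transcript. Sites with a match had median heights of 1.80 and 1.00 in coding exons and 1.49 and 1.24 in untranslated ones, against 1.52 and 0.915 and 1.45 and 1.10 without a match. On the strand of the gene lay 12 of the 22 coding and 9 of the 28 untranslated matches.

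Of the other patterns, some were less and some more common in coding exon sites than in introns. The pattern TGANTCA, bound by the AP-1 family of activity-induced factors, was in 6.09% of coding sites (4.02 to 9.13%) and 10.8% of untranslated sites (7.501 to 15.4%), against 13.6% of introns. Its letters reversed were in 3.19%, 4.58% and 4.94%. CAGATG, an E-box of neuronal bHLH factors, was in 25.5% of coding sites, with an interval of 21.2 to 30.4% that includes the 27.2% of introns, and in 20.4% of untranslated sites (15.8 to 26.0%). The MEF2 pattern used here was open to any base at its middle positions. It was in 1.16% of coding sites (0.452 to 2.94%) and 5.00% of untranslated sites (2.88 to 8.53%), against 3.58% of introns. Its letters reversed were in 2.32% of coding sites, more than the pattern itself, in none of the untranslated sites and in 1.85% of introns. Within 3' UTRs the pattern was in 11 of 148 sites, 7.43% (4.20 to 12.8%). Sort1, Tanc2 and Grin3a were among them, named after their values were seen, and the functions of the 11 genes were not counted. GGGCGG, the GC box of Sp and Klf factors, was in 18.3% of both exon classes against 9.34% of introns, and reversed in 15.4% and 12.5% against 9.15%. GCGNGGGCG, bound by Egr factors, was in 4.06% of coding sites against 0.746% of introns, and reversed in 3.19% against 0.497%. For these GC-rich patterns the reversed letters were nearly as common as the pattern in coding exons. All patterns were searched on both strands of 200 bp, and a match is a description of letters only.

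**Figure D5:**
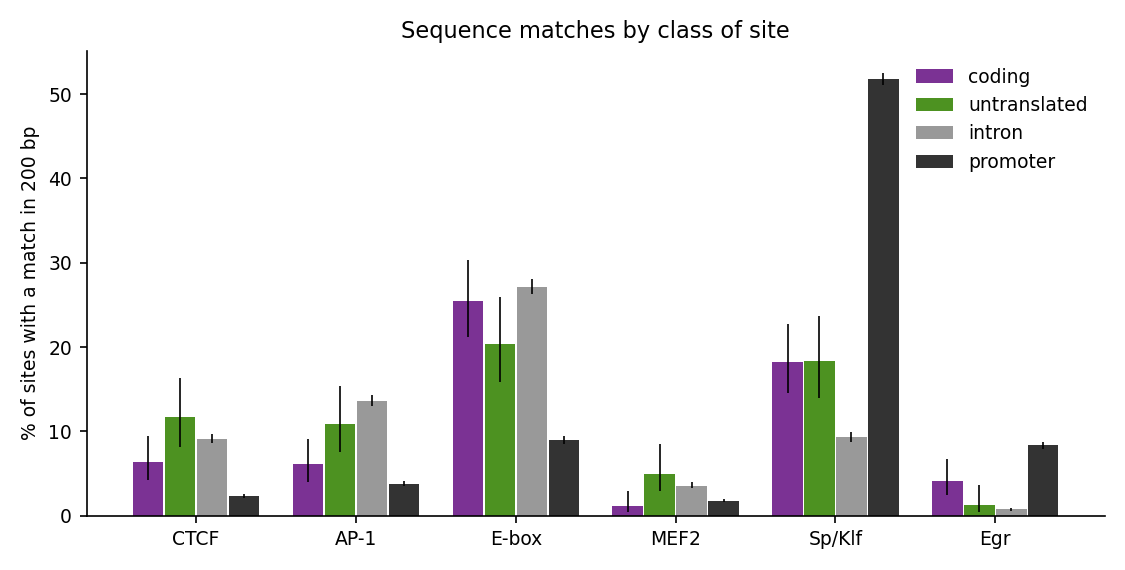
Percent of sites with a match in the central 200 bp for 6 patterns, in coding-exon sites, untranslated-exon sites, introns and promoters, with 95% Wilson intervals. CTCF stands at 6.38% in coding, 11.7% in untranslated and 9.12% in intron sites, and the GC box at 18.3%, 18.3% and 9.34%.

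By function, genes with an exon site were spread over many groups, of which 16 lists were counted. The lists of chromatin regulators, channels and transcription factors are selections and do not cover their families. Of all protein-coding genes 2.49% held a site, and the lists differ in how much exon sequence they offer. Over all genes there were 18.4 members per Mb of eligible exon sequence. Among 46 chromatin regulators 6 held a site (13.04%, 26.1 per Mb). Kdm6b, a histone H3 lysine 27 demethylase, had the highest site on that list, 2.86 and 2.90 in its 5' UTR, and the methyltransferases Nsd1 and Kmt2a had 1.84 and 1.12 and 1.54 and 1.14. The DNA methylation genes Dnmt1 (0.912 and 0.846) and Tet3 (1.19 and 0.991) and the remodeller Chd6 (0.943 and 0.674) were the other listed genes with a site. Outside the list, Ino80c was higher than all of these, and Chd9 (1.31 and 1.21), Jmjd1c (1.01 and 1.11), Hdac4 (1.11 and 0.702) and Kdm3b (0.793 and 0.805) held a coding site each.

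Ion channel genes carried exon sites as well. Of 94 potassium channel genes 7 held one (7.45%, 36.2 per Mb). Kcnq3, a subunit of the neuronal M current, had 2.49 and 2.63 in an exon of a non-coding transcript, and Kcna2, an axonal channel, had 2.20 and 1.60 in its 3' UTR. Coding sites were in Kcng2 (3.14 and 1.01), Kcnh2 (2.08 and 0.860), Kcng3 (1.33 and 1.51), Kcnb2 (1.75 and 0.743) and Kcns1 (1.52 and 0.681). Of 15 listed calcium and sodium channel genes 1 held any (6.67%, 24.4 per Mb), Scn8a, the sodium channel of the axon initial segment, with 2.27 and 0.784 in coding exon 9 and 1.51 and 1.16 in its 3' UTR. Cacna1f, the calcium channel of photoreceptors, is not on that list and had a low coding site (0.512 and 0.399). Coding sites of this group were higher in replicate 1 except that of Kcng3.

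Of 371 solute carrier genes 16 held a site (4.31%, 28.6 per Mb). Among them were Slc6a17, a synaptic vesicle transporter, with 2.92 and 2.54, and Slc4a5, a bicarbonate transporter, with 3.37 and 2.00. The Slc6a17 site lay in an exon of a non-coding transcript. Activity-regulated genes had 2 of 17 (11.8%, 88.8 per Mb of only 22.5 kb). These were the AP-1 components Fosb (1.71 and 1.68) and Jun (1.61 and 0.874), both far below their promoters. The Fosb site lay in an exon of a non-coding transcript and that of Jun in its 3' UTR. Several lists lay below the 18.4 per Mb of eligible exon sequence of all genes. Among them, dynein heavy chains had 3 of 17 genes and 15.8 per Mb, and myosins 3 of 39 and 16.9. Semaphorins, plexins and Eph receptors had 2 of 43 and 15.2. Collagens were lower, with 1 of 44 and 5.61 per Mb, and protocadherins higher, with 2 of 69 and 39.6 per Mb from 5 sites. Myo5a, a motor of dendritic spines, had 1.61 and 1.54 in its 3' UTR, Ephb2, a synaptic ephrin receptor, 2.75 and 1.38, and the basement membrane collagen Col4a2 2.18 and 1.42. Of 394 Zfp zinc finger genes 6 held a site, 1.52% or 10.9 per Mb. Zfp697 had 4.08 and 1.29 in its last exon. None of 14 listed postsynaptic scaffold genes, 14 myelin genes, 39 Hox genes or 11 laminin genes held one. These lists offer little eligible exon sequence, 46.6 kb, 15.02 kb, 6.31 kb from 17 of the Hox genes, and 61.6 kb, so that few or no sites would be found there at the density of all genes. The scaffold genes Grip1 and Tanc2, which held a site, are not on the first list.

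In 5 coding and 5 untranslated sites fewer than 80% of the 32-base words occur once in the genome. That is 1.45% and 2.08%, against 0.938% of introns and 2.02% of all shared sites. Gal3st2c was the highest of the coding ones, with 2.65 and 2.25, and Gprasp1, which regulates receptor sorting, the highest of the untranslated ones, with 2.01 and 0.784. The near-copies Dnah7a (1.02 and 0.942) and Dnah7b (0.437 and 0.371) both had their site in exon 29 of 66, with 41.9% and 45.5% of unique words, so reads of the pair may be shared and their heights are uncertain. The same holds for Klk1b26, Cd200r4 and Vmn1r234, members of multigene families. On the X chromosome, single in males, there were 4 coding and 2 untranslated sites. These make up 1.16% of coding and 0.833% of untranslated sites, against 1.502% of introns and 2.33% of all shared sites. The part of the single copy in these shares was not tested.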

How the data were processed

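DNase-seq of 2 cortex libraries on mm10 (GRCm38) was used as the authors deposited it. Each library has 2 peak lists, whose deposited signal is the peak height with a normalization that is not stated, a list of false discovery rates and a list of footprints. The deposited rates are q-values (adjusted p-values) per run of bases at or under 0.05, and the deposited footprint score was 0.01 throughout and was not used. Heights were whole multiples of 1 step per library (100% within 0.02 of a step), from which depth was inferred. Peaks came from each library without pooling, per the file headers of the deposited list. The peak caller was not given in the sources used here.

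Peaks of the shorter list that overlapped or touched were merged. Exons, starts and ends came from GENCODE M21, with all transcripts of a gene, and RefSeq starts from its GRCm38.p6 annotation, which also gave the sequence. A base in coding sequence of any transcript counted as coding. Coordinates are 1-based. A footprint covered a match if it overlapped at least 50% of it. CTCF, MEF2 and NRF1 patterns are given by name. Intervals cover counting error only. Named sites were, per class, the 8 highest, the 3 lowest, those under 80% unique words, the 4 highest with CTCF in a footprint and the 3 with the most footprints. Added to these were the genes with the most sites, the 5 largest ratios in each direction and the 2 highest of each list. Other genes named from or beside the lists, the MEF2 and NRF1 sets and the promoter comparison were chosen after their values were seen. The members and lists were chosen with earlier results of these data known. Merging, classes, height ratios, footprint shares and the pattern search were tested on simulated data. The tools were Python 3.11.15, NumPy 2.4.6, pandas 2.3.3, SciPy 1.17.1 and matplotlib 3.10.9.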

Additional observations from a re-analysis of the deposited data

How the results depend on the processing

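Over 17 alternatives and 13 results, 143 values were compared, of which 104 moved by less than the SD over the mice, 32 moved further, and 7, of results with 1 direction in both mice, changed sign. For the density, GC and CTCF results this SD came from the peaks of each mouse alone, shared or not, and so from other sites than the value itself. The untranslated GC gap, 1.18 points, lay below both of those values, 1.47 and 1.56. For the coding density ratio the SD was 0.746, so its 1.33 at 2 kb counted as a smaller move. The alternative that also left out sites within 1 kb of a RefSeq start was added after the data were seen. The comparison within genes and coding bases at the rate of 0.001 moved by less than the SD over the mice throughout. For listed bases this could not be otherwise with 1 mouse left out, since the value is then that of the other mouse. That SD is also larger where the mice differ more, so a small move against it does not show that the mice gave like values. So did the height ratio of coding sites to introns, but it has no common direction in the mice, and its 1.05 fell below 1 with either mouse left out. No paired analysis was possible because there is 1 group.

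The gap in footprint share between coding sites and introns, -1.61 points, was 0.0987 points with the higher 50% of the peaks, 0.487 with an overlap of 50% of each peak, -3.61 at 500 bp, -0.104 at 2 kb and -3.19 with footprints of at least 10 bp. For untranslated sites, at -1.68, it was 0.566 with the longer list and 0.420 with footprints of at least 10 bp. The CTCF gap of coding sites, -2.74 points, was -0.894 with the longer list, -4.28 with the higher 50% and 4.88 with the looser pattern. That of untranslated sites, 2.55, was 8.28 at 2 kb (70 sites) and -0.681 with the looser pattern. The GC gap of coding sites, 6.26 points, was 5.71 with the longer list, 7.52 at 500 bp, 4.92 at 2 kb, 7.00 where at least 50% of the site was exonic and 5.72 without RefSeq starts. That of untranslated sites, 1.18, was 1.49 with the longer list, 0.0732 with the higher 50%, 0.776 with reciprocal overlap, 1.94 at 500 bp, 1.85 at 2 kb, 1.44 with protein_coding transcripts alone, 1.27 where 50% was exonic, 1.47 over the whole site and 0.878 without RefSeq starts. The untranslated density ratio was 1.64 and the height ratio 0.976 with the higher 50%, the height ratio 1.15 with the longer list, and the ratio of listed bases 1.05 at 2 kb. The cause was not tested.

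With 1 mouse left out, and the peaks of the other used alone, the density ratio ran from 1.38 to 2.43 for coding and from 1.19 to 1.502 for untranslated exons. The footprint gap ran from -5.72 to -2.79 and from -7.58 to -1.02 points. The GC gap ran from 6.15 to 6.82 and from 1.47 to 1.56 points, the CTCF gap of coding sites from -3.07 to -1.26, the coding height ratio from 0.929 to 0.956 and the untranslated one from 1.03 to 1.13. The lower value of each density ratio came without replicate 1. The threshold of each peak list limits which sites can be seen, and 2 mice limit the precision of all of it.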
